A study of Mus musculus with 4 samples.

Results

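The genes described here are feedback genes induced by signalling through NF-kB and the mitogen-activated protein (MAP) kinases, most of them encoding inhibitors of these or neighbouring pathways, in single group 2 innate lymphoid cells (ILC2) from mouse pancreas. They were named by symbol, 10 in all (Nfkbia, Nfkbiz, Tnfaip3, Zfp36, Dusp1, Dusp2, Dusp4, Dusp10, Socs3 and Btg2), and looked up among the 11430 row names of the read count table. Of these, 9 were present; Dusp4 had no row and was not analysed here. The set was selected on earlier results of the same cells, the shares and levels of these genes by colour included, so the values below are descriptions and carry no test.

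All cells came from pancreas of mice labelled C57BL6J that carried KIKR, a protein that turns from green to red fluorescence on exposure to violet light. A red, photoconverted cell (KIKR-Red) is marked by such exposure and a green, non-photoconverted one (KIKR-Green) is not. Sorting placed single cells in 384-well plates for SORT-seq, which counts the 3' ends of polyadenylated RNA. Neither the labels nor the sort record give a feeding state, age or animal for any cell, although the series title is about fasting. The row names fitted plate 1 only, of 4 plates. Rows named as mitochondrial held 5.63% of the reads of plate 1 and 0.0110 to 0.0531% of the reads of the other plates, and how often each row was detected correlated between plate 1 and the others at a Spearman rho of 0.0382 to 0.0803 across rows. Every value below is therefore from plate 1, a single sample, with 8 photoconverted and 98 non-photoconverted cells after the filter on cells (at least 500 genes and under 25% mitochondrial reads). All 221 empty wells were kept as background without that filter, which 1 of them would have passed. A photoconverted cell gave a median of 496078 gene reads and a non-photoconverted cell 165391. With 1 plate there is no replicate of a condition, and cells are not replicates; intervals cover the counting of cells only.

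Both NF-kB and MAP kinase signalling are known to induce their own inhibitors. In ILC2, interleukin-33 is known to act through the adaptor Myd88 on NF-kB and on p38. IkB-alpha, the product of Nfkbia, holds NF-kB dimers in the cytoplasm, is destroyed when the pathway is switched on and is made again as an NF-kB target, which closes the loop. The dual specificity phosphatases (Dusp genes) remove the activating phosphates from MAP kinases, and the RNA-binding protein made by Zfp36 shortens the life of cytokine transcripts.

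The promoters of Nfkbia, Tnfaip3, Dusp1 and Btg2 are shown because, of the windows searched, these held a match to the DNA site of NF-kB or to that of cyclic AMP response factors. Windows of 300 bases, with 250 before and 50 after the annotated start, were taken from RefSeq (GRCm38.p6, the same assembly as mm10), which held a window for 8 of the 9 genes (not for Nfkbiz). Capitals mark matches, on either strand, to the kB consensus of 10 bases, the DNA site of NF-kB, and to the cyclic AMP response element TGACGTCA. The AP-1 site TGANTCA was searched too and is left in lower case; no match overlapped another.
Nfkbia, chr12:55492598-55492897, minus strand: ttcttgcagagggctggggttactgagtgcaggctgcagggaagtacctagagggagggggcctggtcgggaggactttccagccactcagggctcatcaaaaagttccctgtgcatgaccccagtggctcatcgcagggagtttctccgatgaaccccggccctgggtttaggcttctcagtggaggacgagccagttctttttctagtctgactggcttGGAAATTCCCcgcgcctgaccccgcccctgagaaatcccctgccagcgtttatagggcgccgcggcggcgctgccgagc
Tnfaip3, chr10:19015361-19015660, minus strand: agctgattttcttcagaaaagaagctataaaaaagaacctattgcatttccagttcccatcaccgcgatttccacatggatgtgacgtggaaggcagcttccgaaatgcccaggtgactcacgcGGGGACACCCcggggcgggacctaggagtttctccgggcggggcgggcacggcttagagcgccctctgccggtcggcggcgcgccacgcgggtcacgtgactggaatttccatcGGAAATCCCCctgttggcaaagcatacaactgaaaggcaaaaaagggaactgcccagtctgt
Dusp1, chr17:26508423-26508722, minus strand: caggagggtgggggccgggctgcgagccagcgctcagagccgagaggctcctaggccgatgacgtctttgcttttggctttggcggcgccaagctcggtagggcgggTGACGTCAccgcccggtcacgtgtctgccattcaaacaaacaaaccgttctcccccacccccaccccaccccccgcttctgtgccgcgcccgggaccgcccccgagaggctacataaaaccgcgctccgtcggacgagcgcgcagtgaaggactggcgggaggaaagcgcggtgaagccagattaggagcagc
Btg2, chr1:134079106-134079405, minus strand: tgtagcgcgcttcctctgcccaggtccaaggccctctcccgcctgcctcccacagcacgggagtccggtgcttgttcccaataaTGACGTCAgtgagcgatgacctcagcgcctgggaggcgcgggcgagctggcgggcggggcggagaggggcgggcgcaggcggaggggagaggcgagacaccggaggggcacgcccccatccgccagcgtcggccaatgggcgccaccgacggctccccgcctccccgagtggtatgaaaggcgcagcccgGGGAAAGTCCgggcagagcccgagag
In Nfkbia the kB match GGAAATTCCC began 29 bases before the start. Tnfaip3 had kB matches that began 126 and 12 bases before the start, and another window of the same gene, at an inner start, had none. Dusp1 and Btg2 each had 1 match to the cyclic AMP response element, 143 and 166 bases before the start, and Btg2 also had a kB match that began 24 bases after it. The AP-1 site was matched in Tnfaip3 only, 136 bases before the start. In the windows of Zfp36, Dusp2, Dusp10 and Socs3 none of the 3 motifs was found. Over 32851 windows of this length in the table, 19.5% held the kB consensus, 1.79% the response element and 7.81% the AP-1 site. A match describes the letters only.

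Most of these inhibitors were widely detected in ILC2 of either colour. The limit of detection was 16 reads, a number that empty wells rarely reached. Together the 9 genes took a mean of 1.90% of the gene reads of a photoconverted cell, 2.14% in depth-matched cells and 2.09% in all non-photoconverted cells. A photoconverted cell held a median of 6 of the 9 genes (range 5 to 8), a depth-matched cell 6 (2 to 7), a non-photoconverted cell 5 (0 to 8) and an empty well 0 (0 to 1). Depth-matched cells are the 5 non-photoconverted cells nearest in number of genes to each photoconverted cell, 29 distinct cells. Photoconverted cells, with 938 to 5129 genes, were set against them because photoconverted cells gave more genes, with a median of 2748.5, against 2718.5 in depth-matched and 1637 in all non-photoconverted cells, while median reads of the spike-in RNA were 59283.5, 64527 and 67405. No non-photoconverted cell had more than 4480 genes, so the cells matched to the deepest photoconverted cell were all shallower than it.

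The number of inhibitors per cell followed the number of genes per cell. In the 25 non-photoconverted cells of the lowest depth quartile (502 to 1020 genes) a mean of 3.44 inhibitors was detected, against 4.8, 5.54 and 6 in the next 3 quartiles. Of the 15 non-photoconverted cells with at most 2 inhibitors, 9 were in the lowest quartile. The mean per cell was 6.25 in photoconverted, 5.625 in depth-matched and 4.93 in all non-photoconverted cells, so that the excess in photoconverted cells was 0.625 genes after matching and 1.32 without it. The excess after matching is the sum of the differences in share of the 9 genes. Dusp10 alone, with 52.5 percentage points, made up most of it. With each cell drawn down to 1000 reads the excess over matched cells was 0.216 genes.

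**Figure D1:**
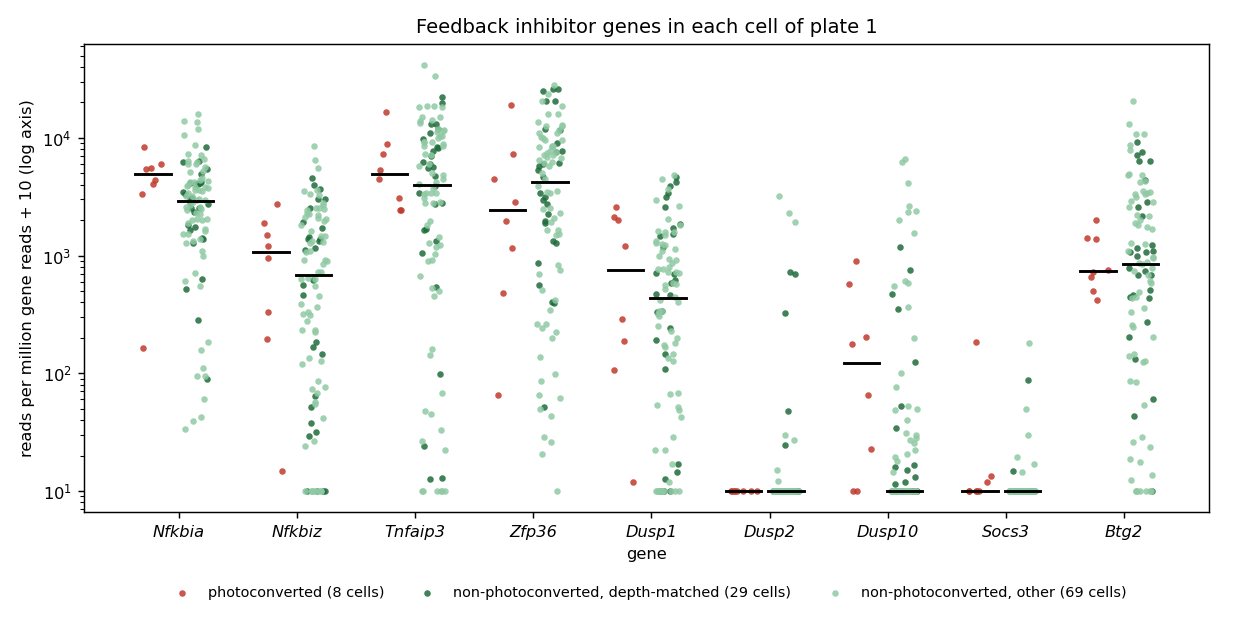
Level of each of the 9 genes in every cell of plate 1 that passed the filter, as reads per 1000000 gene reads plus 10 on a log axis; black bars are medians, and red points are photoconverted cells, dark green depth-matched and light green other non-photoconverted cells. The 2 colours overlap for every gene, and Dusp2 and Socs3 lie at 0 in most cells of either colour.

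Of the NF-kB inhibitors, Nfkbia and Tnfaip3 were found in most cells. Nfkbia (chromosome 12, 55489410 to 55492647, minus strand, mm10) had from 32 to 7181 reads in photoconverted cells, with a median of 2334, and from 2 to 4042 in non-photoconverted cells, with a median of 436. All 8 photoconverted cells held it (exact 95% interval 63.1 to 100%), as did 100% of depth-matched cells, 91.8% of the 98 (84.5 to 96.4%) and 0.452% of empty wells. Mean CPM, the reads per 1000000 gene reads, were 4657 in photoconverted, 2922 in depth-matched and 3462 in all non-photoconverted cells. This is a log2 ratio of 0.67 over matched cells on the scale of mean CPM plus 10, and it became 1.10 with levels taken per spike-in read. The ranges of single cells overlapped, from 152 to 8352 CPM in photoconverted and from 23.6 to 15806 CPM in non-photoconverted cells. Photoconverted cell 5, with 32 reads, was the lowest of its colour, and the other 7 had 64 reads or more. Photoconverted cells are numbered in well order.

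Tnfaip3 (chromosome 10, 19000910 to 19015657, minus strand) encodes A20, a ubiquitin-editing enzyme that ends signalling from receptor complexes to NF-kB. It had from 511 to 7255 reads in photoconverted cells, with a median of 2292, and from 0 to 8380 in non-photoconverted cells, with a median of 661.5. All 8 photoconverted cells had 64 reads or more. Tnfaip3 passed the limit in 90% of depth-matched cells, 81.6% of the 98 non-photoconverted cells (72.5 to 88.7%) and 0.905% of empty wells. The mean level was nearly equal, at 6313 CPM in photoconverted, 6180 in depth-matched and 6345 in all non-photoconverted cells.

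Nfkbiz (chromosome 16, 55811375 to 55838899, minus strand) encodes IkB-zeta, a nuclear member of the IkB family that can also aid transcription of selected targets. It had from 1 to 1413 reads in photoconverted cells, with a median of 542.5, and from 0 to 2195 in non-photoconverted cells, with a median of 127. Cells with Nfkbiz were 6 of the 8 photoconverted (34.9 to 96.8%), 72.5% of the depth-matched and 69.4% of the 98 non-photoconverted ones (59.3 to 78.3%). Mean levels of 1100 CPM in photoconverted, 1110 in depth-matched and 1247 CPM in all non-photoconverted cells lay within the spread of single cells.

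Zfp36 (chromosome 7, 28376784 to 28380253, minus strand) encodes tristetraprolin, which binds AU-rich elements of transcripts such as those of Tnf and Csf2 and brings in the deadenylase. It had from 3 to 8905 reads in photoconverted cells, with a median of 2517, and from 0 to 15035 in non-photoconverted cells, with a median of 603.5. Zfp36 was present in 7 of the 8 photoconverted cells (47.3 to 99.7%), in 97.5% of depth-matched ones and in 84.7% of the 98 (76.0 to 91.2%). Its mean was 4677 CPM in photoconverted, 7619 in depth-matched and 6328 in all non-photoconverted cells, a log2 ratio of -0.70 over matched cells that became -1.44 without photoconverted cell 6 and -0.10 with levels taken per spike-in read. That cell had 19183 CPM, the highest of its colour, and cell 8, the shallowest with 938 genes, had 3 reads.

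Btg2 (chromosome 1, 134075170 to 134079120, minus strand) encodes an anti-proliferative protein that binds the same deadenylase complex. It had from 40 to 1331 reads in photoconverted cells, with a median of 547, and from 0 to 5558 in non-photoconverted cells, with a median of 154.5. It passed the limit in each of the 8 photoconverted cells, in 92.5% of depth-matched ones and in 75.5% of the 98 (65.8 to 83.6%). Its mean level was 970 CPM in photoconverted, 2168 in depth-matched and 2166 in all non-photoconverted cells, a log2 ratio of -1.15 over matched cells that became -0.76 without photoconverted cell 5 and -0.70 with levels taken per spike-in read. Medians were closer, at 733 CPM in photoconverted and 845 CPM in all non-photoconverted cells. Single cells ranged up to 1978 CPM in the 8 photoconverted and up to 20702 CPM in the 98 non-photoconverted cells, of which 3 held 21% of the summed CPM.

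Among the phosphatases, Dusp1 (chromosome 17, 26505590 to 26562128, minus strand) was the one found in most cells. It encodes MKP-1, which acts on p38 and JNK. It had from 1 to 1865 reads in photoconverted cells, with a median of 183.5, and from 0 to 2132 in non-photoconverted cells, with a median of 64. Dusp1 was present in 7 of the 8 photoconverted cells, 80% of depth-matched ones and 64.3% of the 98 (54.0 to 73.7%), with means of 1058 CPM in photoconverted, 1290 CPM in depth-matched and 866 CPM in all non-photoconverted cells. The share differed with depth, at 28% in the lowest and 83.3% in the highest depth quartile of non-photoconverted cells.

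Dusp10 (chromosome 1, 184013302 to 184075636, plus strand), which encodes MKP-5, another phosphatase of p38 and JNK, had the largest difference in share between photoconverted and depth-matched cells of the 9 genes with reads as deposited, though not with cells drawn down to 1000 reads. It had 514, 0, 29, 316, 0, 6, 159 and 30 reads in photoconverted cells 1 to 8, and so passed the limit in 5 of 8 (24.5 to 91.5%). In depth-matched cells the share was 10%, in the 98 non-photoconverted cells 17.3% (10.4 to 26.3%) and in empty wells 0 of 221, which allows up to 1.36%. 1700056E22Rik, a gene on the opposite strand, overlaps Dusp10, and reads there cannot be told apart if strand was not used in counting. It spans 184033030 to 184034301, away from the annotated 3' end of Dusp10 at 184075636. Where in the gene the reads fell was not examined. Even in the highest depth quartile of non-photoconverted cells the share was 33.3%. The difference of 52.5 percentage points from depth-matched cells was 57.5 points at 4 reads, 30 at 64 reads and 38.8 points with 10 nearest cells, and 12.5 points with each cell drawn down to 1000 reads, where Tnfaip3 differed by 13.1 points.

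The level of Dusp10 depended on the set of non-photoconverted cells it was compared with. Mean CPM was 235 in photoconverted, 73.2 in depth-matched and 341 in all non-photoconverted cells. The log2 ratio was 1.56 over depth-matched cells and -0.52 over all non-photoconverted cells; over depth-matched cells it was 0.69 without photoconverted cell 1, 2.29 per spike-in read and -0.37 with 10 nearest cells in place of 5. A few non-photoconverted cells carried most of it, since 3 of 98 cells held 50.6% of the summed CPM. Single cells ranged up to 888 CPM in the 8 photoconverted and up to 6591 CPM in the 98 non-photoconverted cells, groups too unequal in number for their maxima to be compared. Drawn down to 1000 reads, the expected share was 17.7% in photoconverted, 5.21% in depth-matched and 11.9% in all non-photoconverted cells.

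Dusp2 and Socs3 were rare. Dusp2 (chromosome 2, 127336159 to 127338376, plus strand) encodes PAC-1, a nuclear phosphatase of MAP kinases. Not one read fell in the 8 photoconverted cells (a count of 0 allows up to 37.5%), and the share was 12.5% in depth-matched and 6.12% in the 98 non-photoconverted cells (2.28 to 12.9%). Of the non-photoconverted cells, 3 held 80.4% of its summed CPM, with up to 3193 CPM in a cell. Socs3 (chromosome 11, 117966079 to 117970047, minus strand), an inhibitor of JAK kinases under the receptors that share gp130, reached the limit in 1 of the 8 photoconverted cells (0.316 to 52.7%), 7.5% of depth-matched and 2.04% of the 98 non-photoconverted cells (0.248 to 7.18%). The single photoconverted cell, number 7, had 163 reads, and the highest non-photoconverted cell had 50.

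**Figure D2:**
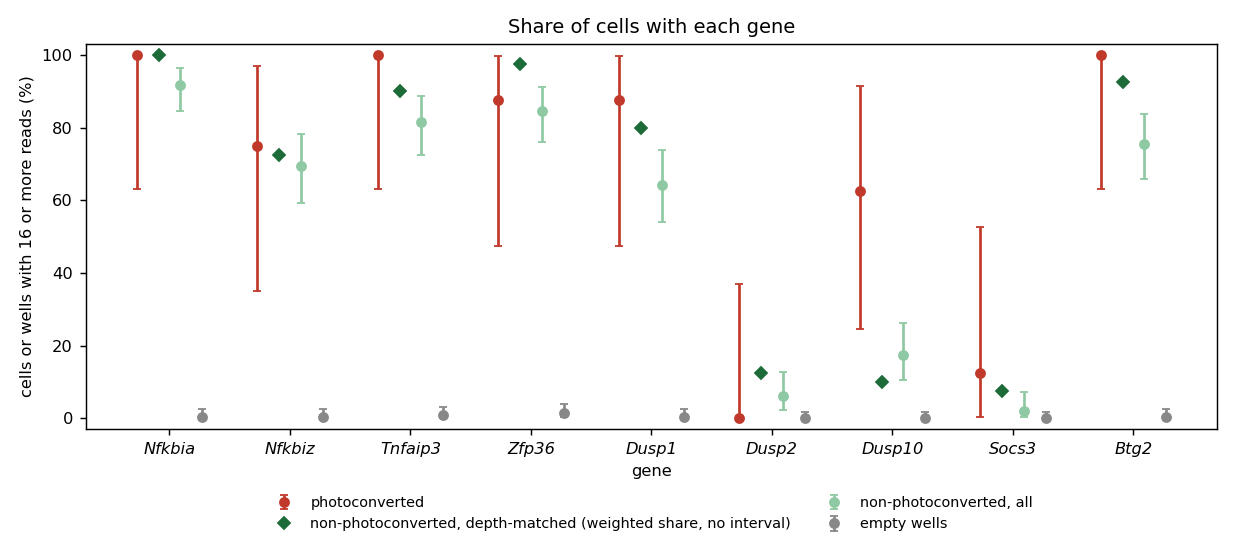
Share of cells or wells, in percent, with 16 or more reads of each gene in photoconverted cells (n = 8), depth-matched and all non-photoconverted cells (n = 98) and empty wells (n = 221); bars are exact 95% binomial intervals, and depth-matched shares are weighted and have none. Dusp10, at 62.5% in photoconverted and 10% in depth-matched cells, has the largest difference, and empty wells stay at or below 1.36%.

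Apart from Dusp10, the share of each of the 9 genes differed from that of depth-matched cells by at most 12.5 percentage points. With 8 photoconverted cells the intervals are wider than this, so likeness of the shares is not shown. Against depth-matched cells the share in photoconverted cells was larger for 6 genes, smaller for 2 and the same for 1, with a median difference of 5 percentage points, beside 0 over all 11238 genes with a read, of which 38.0% had a larger and 38.4% a smaller share. Dusp10 alone of the 9 was 25 percentage points or more higher, where 5.54% of all genes were, and none was 25 points or more lower, where 2% of all genes were. By mean CPM, Dusp10 and Socs3 were at least 2-fold higher (background 11.1%), and Dusp2 (at 0 in photoconverted cells) and Btg2 at least 2-fold lower (background 24.7%), with a median log2 ratio of -0.01 over the 9 genes and -0.13 over all genes. Socs3 passed through photoconverted cell 7 alone, and Btg2 did not pass without cell 5 or per spike-in read. Nfkbia passed per spike-in read only, a scale on which no background over all genes was computed. Among the 242 genes detected in 50% or more of cells of either colour, 0.413% were 25 points or more higher and 1.24% lower in share, and none of the 6 inhibitors of that class was. By mean CPM 3.72% of these genes were 2-fold or more higher and 7.85% lower, Btg2 among the lower.

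The common inhibitors were often detected together, as high shares of single genes alone also give. No expected number was computed for the joint counts in this paragraph. In photoconverted cells the count for the first 3 genes below is that of Zfp36, since Nfkbia and Tnfaip3 were in all 8. Nfkbia, Tnfaip3 and Zfp36 were all detected in 7 of 8 photoconverted cells (47.3 to 99.7%), 87.5% of depth-matched cells, 72.4% of the 98 (62.5 to 81.0%) and 0 of 221 empty wells. All 6 common inhibitors (these 3 with Nfkbiz, Dusp1 and Btg2) were present together in 5 of 8 photoconverted cells (24.5 to 91.5%), 60% of depth-matched cells and 42.9% of the 98 non-photoconverted cells (32.9 to 53.3%). None of the 6 was found in 2 of 98 non-photoconverted cells.

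Pairs of inhibitors were co-detected more often than expected from their shares at like depth. The number expected for a pair was the product of the shares of both genes within each depth quartile of the 98 non-photoconverted cells, summed over quartiles. All 21 pairs of the 7 genes found in at least 10 of these cells were held jointly by more cells than expected, by a median factor of 1.08 (range 1.01 to 1.21). Cells of the same quartile still differ in depth, and with 8 groups in place of 4 the median factor was 1.06, and in the deeper 49 cells it was 1.04. Over all 4498500 pairs of the 3000 genes found in at least 10 of these cells the median factor was 1.03 and 56.1% of pairs were above 1. Shares bear on the factor, and among the 6 common inhibitors it was 1.07, with 15 of 15 pairs above 1, beside 1.01 and 61.4% over the 29161 pairs of the 242 genes found in 50% or more of cells. Nfkbia and Tnfaip3 were both present in 79 cells, where 73.9 were expected, and only 1 cell had Tnfaip3 without Nfkbia. Tnfaip3 and Btg2 were both present in 68 cells, with 62.0 expected. Each of the 17 cells with Dusp10 also held Nfkbia, Tnfaip3 and Zfp36, where 15.9, 15.1 and 15.3 were expected.

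Levels varied together as well. The Spearman correlation of log2(CPM + 10), after both ranks were regressed on the rank of genes per cell, was above 0 in 20 of the 21 pairs across these 98 cells of 1 library, with a median of 0.27, beside 0.0011 and 50.4% above 0 over all pairs of the 3000 genes. The correlation was 0.47 for Nfkbia with Zfp36 and 0.47 for Nfkbia with Tnfaip3. Tnfaip3 correlated with Zfp36 at 0.44 and with Btg2 at 0.42. Nfkbiz was less tied to the rest, at 0.18 with Zfp36 and 0.33 with Tnfaip3. Dusp10 had lower correlations, at -0.03 with Dusp1 and at most 0.21, with Tnfaip3. It had a read in 42 of the 98 cells, Dusp2 in 12 and Socs3 in 8, and ties at 0 limit a rank correlation. By co-detection Dusp10 was not lower, with a factor of 1.21 with Dusp1, the highest of the 21 pairs, and 1.07 with Nfkbia. Against the mean of the other 8 genes, Tnfaip3 correlated at 0.54, Nfkbia at 0.52, Zfp36 at 0.47, Dusp1 at 0.36, Btg2 at 0.35 and Nfkbiz at 0.30, whereas Dusp10 stood at 0.11, Dusp2 at 0.06 and Socs3 at 0.06. These are correlations across cells of 1 plate that share library and base composition, and are given as descriptions.

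**Figure D3:**
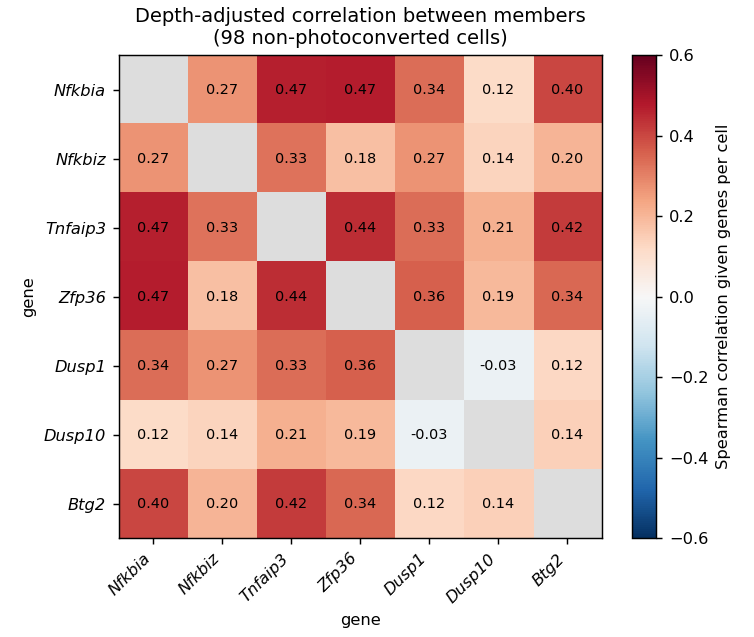
Spearman correlation of levels between each pair of the 7 genes found in at least 10 non-photoconverted cells, given the number of genes per cell (98 cells). Pairs among Nfkbia, Tnfaip3, Zfp36 and Btg2 have values from 0.34 to 0.47, and the row of Dusp10 stays between -0.03 and 0.21. Dusp1 has 0.34 with Nfkbia, 0.33 with Tnfaip3 and 0.36 with Zfp36, but 0.12 with Btg2.

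The genes whose levels were most like the mean of the 9 inhibitors included, among the first 10, 4 genes listed as immediate early factors. Among 749 other genes detected in at least 25% of non-photoconverted cells, the median correlation was -0.0026, 49.3% were above 0 and the 95th percentile was 0.26. Junb, a subunit of the AP-1 transcription factor, came first at 0.59, followed by Nr4a1 at 0.52, an orphan nuclear receptor induced within minutes of stimulation. Kdm6b, a histone demethylase, stood at 0.44 and Gata3, the lineage factor of ILC2, at 0.43. Samsn1, an adaptor that restrains lymphocyte activation, was at 0.39. Fosl2 and Jund, further AP-1 subunits, followed at 0.37 each, then Areg (amphiregulin) and the kinase gene Pim1 at 0.37 each, and Gp49a, a receptor gene of the immunoglobulin superfamily, at 0.37. Taken singly, Nfkbia and Btg2 were both closest to Nr4a1, at 0.52 and 0.46, Tnfaip3 to Junb at 0.50, Zfp36 to Nfkbia at 0.47 and Dusp1 to Csrnp1 at 0.38. Dusp10 was closest to Samsn1, at 0.35, and Nfkbiz to Cytip, at 0.38.

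**Figure D4:**
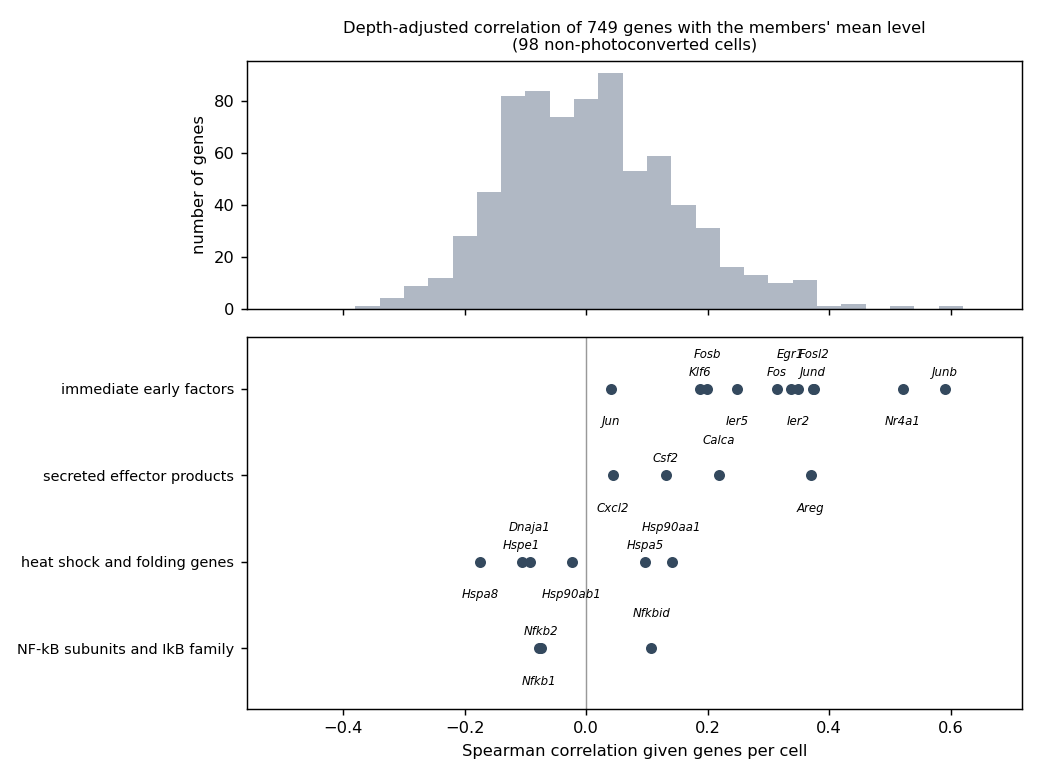
Upper panel, the number of genes by Spearman correlation with the mean level of the 9 inhibitors given genes per cell, for 749 genes in 98 non-photoconverted cells; lower panel, the same measure for genes of 4 lists. All 11 immediate early factors lie above 0, from 0.04 (Jun) to 0.59 (Junb), and heat shock genes lie on both sides of 0.

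Other genes of the pathways were described by the same measure. Of the genes listed as immediate early factors, many but not all of them first-wave genes induced without new protein, 11 passed the limit of 25% of cells. All 11 were above 0, with a median of 0.34. Egr1 was at 0.34, Ier2 at 0.35, Fos at 0.31 and Jun at 0.04. Of the heat shock and folding genes, 2 of 6 were above 0, with a median of -0.06, and Hspa8 stood at -0.17. Of the secreted effector products, 4 of 4 were above 0 with a median of 0.18, led by Areg, while Cxcl2 stood at 0.04. The NF-kB subunits and IkB family had 1 of 3 above 0: Nfkbid, a nuclear IkB protein, at 0.11, Nfkb1 at -0.08 and Nfkb2 at -0.08. Zfp36l1, a sister of Zfp36, stood at 0.26, and of its list of RNA decay genes 4 of 5 were above 0. Egr1, Ier2, Fos and Jun are named here after their values were seen.

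Between colours, the pathway around the inhibitors was mixed, and its counts stand beside 38.0% higher, 38.4% lower and 23.6% equal over all genes, or 50%, 38.0% and 12.0% over the 242 common genes. Of 9 genes for NF-kB subunits and the IkB family, 6 had a larger share in photoconverted than in depth-matched cells and 3 a smaller one, with 1 (Nfkbie, an IkB protein, 4 of 8 against 25%) 25 points or more higher. Of 17 signalling intermediates, 9 were higher and 6 lower, and Map3k7, the kinase TAK1, was 30 points lower, at 0 of 8 photoconverted and 30% of depth-matched cells. Of 15 measured other restraints of NF-kB, 8 were higher and 5 lower: Traf1, a signalling adaptor, was found in 5 of 8 photoconverted and 22.5% of depth-matched cells, and Traf3, which holds down the alternative pathway, in 1 of 8 and 37.5%. Of 19 measured MAP kinase genes, 13 were higher and 4 lower, with Mapkapk2, a kinase downstream of p38, in 4 of 8 and 20%. Of 15 measured other restraints of MAP kinases, 6 were higher and 5 lower, with Dusp6, a phosphatase of ERK, in 4 of 8 and 22.5%, and Rasa1, which switches Ras off, in 5 of 8 and 30%.

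Inhibitors of JAK-STAT signalling, the family of Socs3, went in different directions. Socs2 was detected in 6 of 8 photoconverted cells and 42.5% of depth-matched cells, and Socs1 in 1 of 8 and 25%. Cish was found in 6 of 8 and 70%. Of the 9 genes on that list, Socs3 included, 6 were higher and 3 lower. Of 15 measured RNA decay genes 7 were higher and 7 lower, with Cnot7, a deadenylase subunit, in 4 of 8 and 7.5%. Among 19 measured immediate early factors 12 were higher and 5 lower, with a median of 2.5 points, and Junb was detected in 8 of 8 photoconverted and 97.5% of depth-matched cells. Ier3, an early response gene, passed the limit in 2 of 8 photoconverted and 0 of 98 non-photoconverted cells (a count of 0 allows up to 3.06%). The secreted products had 9 of 13 higher and 3 lower, 6 of the 13 being higher by 25 points or more where 5.54% of all genes were, with a median of 15 points, beside 5 points for the inhibitors. The difference between these lists was not tested.

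The label of the cells was checked on their markers. At least 3 of 12 ILC2 markers were present in 8 of 8 photoconverted and 89 of 98 non-photoconverted cells. The 12 include genes shared with other lymphocytes, such as Ptprc and Thy1, so this count alone does not tell ILC2 from those. At least 3 markers of T cells (4 measured) or of ILC3 (3 measured) were found in 0 cells of either colour. Cd3e and Il23r were detected in no cell. No cell could therefore pass for ILC3, and for T cells only with all the other measured markers. Ltb of the ILC3 list was found in 47.2% of cells and Cd3g of the T cell list in 10.4%. Fewer than 3 markers of the other cell types had rows, apart from the acinar list, whose 3 measured markers were detected in 0 of 106 cells. Cst3, a gene of myeloid cells among others, was found in 33.0% of cells, and Kit in 21.7%. Summed ILC2 markers had a median of 13074 CPM in photoconverted and 11433 CPM in non-photoconverted cells. Summed markers of myeloid cells (2 measured, Cst3 among them) had a median of 100.2 CPM in photoconverted and 8.74 CPM in non-photoconverted cells, and Kit, the measured mast cell marker, 87.4 CPM and 0 CPM; their part in the values above was not tested.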

How the data were processed

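The authors deposited raw read counts per row and well for 4 plates, and a sort record that gives, per the file headers, a colour and a red intensity for every well; the intensity was not used. The deposited colour class (phenotype) was used as given, and the recorded number of cells per well was not used to select wells. STAR, STARsolo, edgeR and mm10 are named in the submitters' processing notes without version or role; whether counting used strand is not given in the sources used here. Ergic1 overlaps the long Dusp1 gene model, 1700056E22Rik overlaps Dusp10 and the antisense gene Gm44710 overlaps Zfp36, each on the opposite strand, so reads of these genes may not be fully told apart. The overlaps with Ergic1 and 1700056E22Rik lie away from the annotated 3' ends of Dusp1 and Dusp10.

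Plate 1 held 52614294 reads. Cells needed at least 500 genes and under 25% mitochondrial reads; 8 of 12 photoconverted and 98 of 151 non-photoconverted cells passed. CPM are reads per 1000000 reads of genes, without spike-ins and mitochondrial rows. The planned pseudocount of 10 CPM was used for ratios. Intervals are exact (Clopper-Pearson) and, like limits from a count of 0 (3 counts of the total), cover counting error of cells only; PCR-amplified reads are not independent molecules. With 1 sample there is no replicate and no p-value was computed. No doublet caller was run on singly sorted cells. The share step was tested on counts of plate 1 with reads planted in chosen genes, and the co-detection and correlation steps on simulated data.

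The members, lists and measures were chosen with earlier results of these data known. Named were all members, the 10 genes most like their mean level, the gene most like each member, and, of each list, up to 5 genes (the 3 with the highest mean CPM in non-photoconverted cells and those 25 percentage points or more apart). Numbered gene models, pseudogenes and ribosomal protein genes were left out of the search for like genes. The text names fewer, and Egr1, Ier2, Fos and Jun were named after their values were seen. Gene positions are from GENCODE M21, which matched 94.1% of 11324 gene rows by symbol and chromosome. Python 3.11.15, numpy 2.4.6, pandas 2.3.3 and scipy 1.17.1 were used. Alternatives covered the detection limit, the cell filter, the matching, the scaling, the pseudocount and the depth groups. Counts over pairs and directions of all genes were added as background after seeing the data.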

Additional observations from a re-analysis of the deposited data

Results flagged for a closer look

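Wells that failed the filter on cells were not used in the report, and some held inhibitor transcripts above the level of empty wells. At least 1 of the 9 genes was detected in 3 of 4 such photoconverted wells (75%, exact 95% interval 19.4 to 99.4%) and in 25 of 53 such non-photoconverted wells (47.2%, 33.3 to 61.4%), against 9 of 221 empty wells (4.07%, 1.88 to 7.59%). Up to 4 of the genes were found in a failed photoconverted well and up to 5 in a failed non-photoconverted well, against at most 1 in an empty well. The wells had medians of 433, 166 and 92 genes in these 3 sets.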

How the results depend on the processing

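The 4 summary values over the members moved by less than their counting error, or by less than 1.5 times for levels, under every alternative run. These limits were wide, at 1.00 genes, 26.2 percentage points and 0.144 for co-detection. The main values were 0.625 genes, 5 points and a factor of 1.08, so each excess could be lost and still count as unmoved. The limit in genes treats every gene in every cell as independent. The excess of inhibitors per photoconverted cell over depth-matched cells lay between 0.216 and 1.32 genes, and between 0.457 and 0.800 without any 1 photoconverted cell. Most of the main value of 0.625 genes came from Dusp10 alone. The median share difference lay between 0 and 10.5 percentage points (0 to 8.57 without any 1 cell), and the median log2 ratio of level between -0.34 and 0.24 (-0.38 to 0.25). Co-detection over expectation lay between 1.04 and 1.12. The correlation of immediate early factors with the inhibitors lay between 0.31 and 0.38 under 5 alternatives, all chosen after seeing the data, as was the restriction of co-detection to the 49 deeper cells. Of 278 values of single genes, 10 moved and 3 reversed. A reversal was called only where the main value was at least 25 percentage points or 2-fold. Smaller values changed sign too and were not counted. Against all non-photoconverted cells the log2 ratio of Dusp1 went from -0.28 to 0.29 and the share difference of Zfp36 from -10 to 2.81 points. With 10 nearest cells the share difference of Nfkbiz went from 2.5 to -6.25 points. The level of Dusp10 reversed to -0.37 with 10 nearest cells and to -0.52 against all non-photoconverted cells. In the non-photoconverted cells, 3 hold 50.6% of its summed CPM; the cause was not tested. The level of Socs3 lay between -0.43 and 1.28 without any 1 photoconverted cell, and it reversed, to -0.43, without cell 7, the only photoconverted cell in which it was detected. The share difference of Dusp10 fell to 12.5 points with cells drawn down to 1000 reads. With 8 photoconverted cells, differences of shares smaller than the widths of the intervals given cannot be seen. No paired analysis was possible because all values come from 1 plate.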
